A study of Mus musculus with 10 samples.

Results

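The 8 genes described here encode suppressors of ferroptosis that act without the glutathione peroxidase Gpx4: Aifm2, Coq2, Stard7, Dhodh, Gch1, Vkorc1l1, Cisd1 and Cisd2. They were chosen by symbol, as the genes of the FSP1, coenzyme Q, tetrahydrobiopterin, vitamin K and mitochondrial iron-sulfur routes, and each symbol matched 1 of the 52171 genes in the deposited table. All 8 passed the filter on low values, which left 22458 genes. RNA was measured by RNA-seq in 10 libraries of leukemia stem cells sorted from mouse bone marrow, all from animals in which the oncogenic fusion MLL-AF9 had caused acute myeloid leukemia. Sorted cells carried c-Kit, CD16/32 and CD34 and lacked Sca-1 and lineage markers. The labels also carry the cell type "hematopoietic stem cell". The 5 control libraries came from mice of genotype Nup214fl/+, which carry 1 floxed allele of Nup214, a gene of the nuclear pore. The 5 heterozygous libraries came from Nup214fl/+,Tie2-cre mice, in which the recombinase is driven by the Tie2 promoter, active in endothelial and blood cells. Ages and the number of animals are not given. Control animals carried no Cre, so an effect of Cre and one of losing a Nup214 allele cannot be told apart.

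Ferroptosis is a death of cells by iron-dependent peroxidation of membrane lipids. Gpx4 reduces lipid peroxides with glutathione, and a parallel set of routes stops the chain reaction with antioxidants that sit in the membrane. FSP1, the product of Aifm2, uses NADPH to regenerate reduced coenzyme Q and vitamin K at the plasma membrane, Coq2 and Stard7 make and move coenzyme Q, and Dhodh reduces it inside mitochondria. Gch1 starts the synthesis of tetrahydrobiopterin, Vkorc1l1 reduces vitamin K, and Cisd1 and Cisd2 are iron-sulfur proteins that limit the iron load of mitochondria.

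In heterozygous cells Gch1 was higher and Aifm2 lower than in controls, and the other 6 genes passed the test in neither direction. The mean of Gch1 was 84.4 normalized reads ± 16.0 (SD, n = 5) in controls against 169 ± 33.2 (SD, n = 5) in heterozygous cells, and that of Aifm2 was 239.7 ± 32.6 against 127 ± 56.7 (SD, n = 5 each). Normalized reads are counts scaled by a single factor for each library and are not corrected for gene length. Calls required an adjusted p under 0.05 from limma, with Benjamini-Hochberg adjustment over all 22458 genes. Of all genes tested, 5% were called higher, 8.01% lower and 13% in either direction. All 8 members are among the 9056 genes with a mean of at least 100. Of these 9056, 928 were called higher and 321 lower in the same test, so calls higher were the more common there. With only 8 members, 1 higher and 1 lower is not far from either background. The median log2 fold change, heterozygous minus control, was -0.14 over the members, with 6 negative and 2 positive, against -0.19 over all genes tested and 0.08 over the 9056 genes with a mean of at least 100. The log2 fold changes were taken after adding 1 to each value, so the change of a gene with few reads is understated.

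Recovered depth was 20.8 to 30.1 M reads in the control libraries and 24.6 to 39.1 M in the heterozygous ones, and each member was covered by 68 to 3320 reads in every library. Nup214 fell from 906 normalized reads ± 69.8 to 484 ± 83.1 (SD, n = 5 each), 53.4% of control, with an adjusted p of 0.00144. The heterozygous libraries were not alike. The summed level of 10 neutrophil marker genes was 36533 and 90012 in heterozygous libraries 1 and 2, 2191234, 1723820 and 4056557 in libraries 3, 4 and 5, and 1108086 to 1627808 in controls. The sum of 10 erythroid marker genes was 6.68 and 115 in heterozygous libraries 1 and 2, 2392, 2761 and 2259 in libraries 3, 4 and 5, and 14.8 to 75.4 in controls. Limma called none of the 10 neutrophil genes (3 had an unadjusted p under 0.05, edgeR called 3 and DESeq2 4) and 2 of 8 tested erythroid genes, both higher, and no marker of either list was at 0 in every library. Of other marker genes, 5 of 10 for monocytes and macrophages were called higher and 1 lower, 1 of 6 tested for plasmacytoid dendritic cells higher and 2 lower, and 1 of 8 for B cells each way. Of 5 T and NK cell genes and 4 endothelial genes, limma, edgeR and DESeq2 called none, and 2 of each list had an unadjusted p under 0.05. The summed monocyte and macrophage level of heterozygous libraries 1 and 2 was 62372 and 93987, that of libraries 3, 4 and 5 was 23895 to 46560, and controls spanned 77728 to 113992. This sum was thus below every control in all heterozygous libraries but library 2, although 5 of the 10 genes were called higher. A sum follows its most abundant genes. The T and NK cell sum was 26477 and 40825 in heterozygous libraries 1 and 2, against 5762 to 13561 in libraries 3, 4 and 5 and 26389 to 32496 in controls. The B cell sum was below every control in all 5 heterozygous libraries, at 543 to 937 against 1064 to 1357. The plasmacytoid dendritic sum was 1384 to 2102 and 1891 to 3103 in the heterozygous and control groups, and the endothelial sum 563 to 1311 and 406 to 681.

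The 4 genes of the markers used as positive in the sort were present in every library. Kit, at 673 to 2820.3 normalized reads, was called lower (log2 fold change -0.89, adjusted p = 0.0184). Cd34 (-0.62, adjusted p = 0.304), Fcgr3 (0.29, adjusted p = 0.666) and Fcgr2b (-0.01, adjusted p = 0.971) were not called. The sum of the 4 was 35754 and 25402 in heterozygous libraries 1 and 2, above the control range of 12158 to 19382, and 8376 to 16426 in libraries 3, 4 and 5. Fcgr3 made up most of it in heterozygous libraries 1 and 2, at 30703 and 19584. In the same 2 libraries Kit, at 1271 and 1676, was below every control, and Cd34 and Fcgr2b were not above the control range. Ly6a, which encodes Sca-1, a marker the sort excludes, was called lower (log2 fold change -0.83, adjusted p = 0.0339). The 5 listed genes for markers the sort excludes, Ly6a among them, summed to 1538 and 2521 in heterozygous libraries 1 and 2, to 11018 to 20025 in libraries 3, 4 and 5, and to 5657 to 8047 in controls. Where several members separate heterozygous libraries 1 and 2 from 3, 4 and 5, the part of these cell types in the difference was not tested. In bulk RNA, fewer cells of a type and less RNA per cell cannot be told apart.

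**Figure D1:**
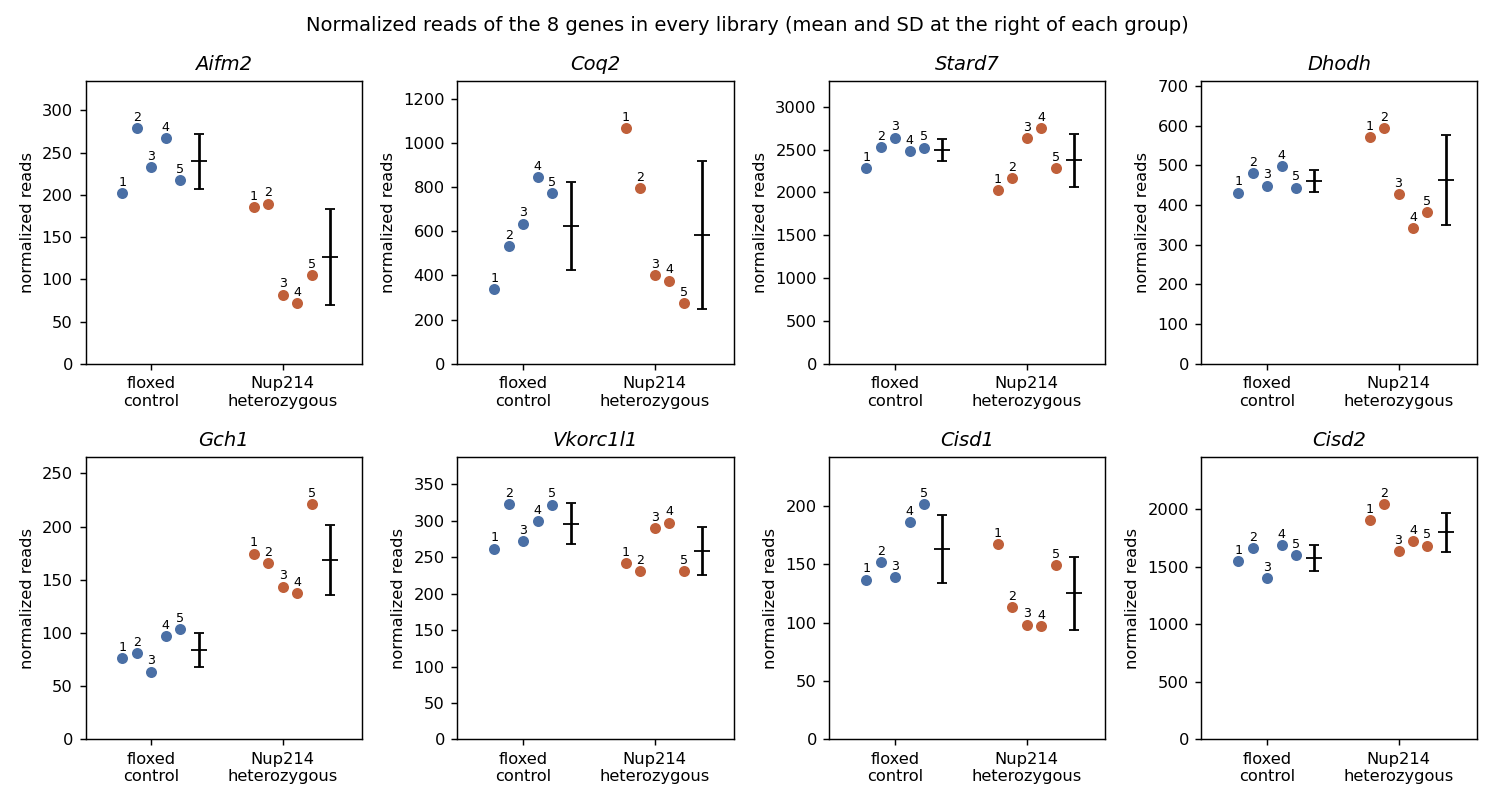
Normalized reads of the 8 genes (vertical axes, each from 0) in the 5 floxed control and 5 Nup214 heterozygous libraries; points are libraries with their replicate number, and bars are the mean and SD. All 5 heterozygous libraries lie below every control for Aifm2 and above every control for Gch1.

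Aifm2 (ENSMUSG00000020085.15) lies on the plus strand of mouse chromosome 10, from 61715263 to 61739260 of the mm10 build, and has 4121 exonic bases. Its product FSP1 is held at membranes by a myristate on the glycine that follows the start codon, a feature known from the human protein. The first 60 coding bases of the mouse transcript, taken from its longest open reading frame in the GENCODE set of the same build, are shown with that glycine codon in capitals, since membrane anchoring is what lets the enzyme act on lipids.
Aifm2: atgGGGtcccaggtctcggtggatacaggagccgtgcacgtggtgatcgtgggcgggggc

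Control libraries 1 to 5 held 202, 279, 232, 267 and 217 normalized reads of Aifm2, and heterozygous libraries 1 to 5 held 185, 189.6, 81.7, 72.2 and 105. All 5 heterozygous libraries were below every control, as was the case for 6.67% of all genes tested. Libraries 1 and 2 lay just under the lowest control, and libraries 3, 4 and 5 lay well below it. The heterozygous mean was 52.8% of the control mean. The log2 fold change was -1.02 (SE 0.260, 95% interval -1.58 to -0.46, adjusted p = 0.0257 by limma). Without heterozygous libraries 3, 4 and 5 it was -0.34 with an adjusted p of 0.176, and without libraries 1 and 2 it was -1.47 with an adjusted p of 9.8e-05. This split of the heterozygous libraries is not in the labels and was drawn from these data, so adjusted p-values from it are descriptive only. Leaving out control library 2, 4 or 5, or heterozygous library 5, also ended the call, with an adjusted p of 0.0503 to 0.0571.

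The end of Aifm2 overlaps exons of Macroh2a2, a histone variant gene on the opposite strand, and the use of strand in counting is not given. Macroh2a2 was low in both groups, at 0 to 7.50 normalized reads in controls and 0.794 to 18.5 in the heterozygous group, and was not called (adjusted p = 0.566). Of 8299 named protein-coding genes with a mean of at least 100, the one with the profile over the 10 libraries closest to Aifm2 was Dtnbp1, which encodes the dysbindin subunit of a complex that forms lysosome-related organelles. Its centred log2 values differed from those of Aifm2 by a root mean square of 0.144, against a spread of 0.665 of Aifm2 around its own mean. P2rx1, an ATP-gated ion channel, followed at 0.174 and Oscp1 at 0.190. Dtnbp1 ranged from 532 to 629 normalized reads in controls. It was at 442 and 426 in heterozygous libraries 1 and 2 and at 189 to 203 in libraries 3, 4 and 5.

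Coq2 (ENSMUSG00000029319.8; chromosome 5, 100654723 to 100675140, minus strand) encodes the enzyme that attaches the lipid tail to the ring of coenzyme Q. Control libraries 1 to 5 held 337, 532, 634, 844 and 772 normalized reads, and heterozygous libraries 1 to 5 held 1066, 796, 399, 376 and 274. The groups overlapped, and the heterozygous libraries fell at both ends, with library 1 above every control and library 5 below every control. The means were 624 ± 200.6 and 582 ± 336 (SD, n = 5 each), and the log2 fold change was -0.22 (SE 0.346, 95% interval -0.96 to 0.53, adjusted p = 0.693). The interval is wide and includes 0, so no difference was detectable at this spread. Without heterozygous libraries 1 and 2 the log2 fold change was -0.78 and was called lower (adjusted p = 0.0403), and without libraries 3, 4 and 5 it was 0.63 (adjusted p = 0.118). Libraries 1 and 2 held the highest heterozygous values of Coq2, so leaving them out could only lower its fold change, and that call is no independent support.

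Stard7 (ENSMUSG00000027367.16; chromosome 2, 127270218 to 127298932, plus strand) encodes a lipid transfer protein that carries phosphatidylcholine to mitochondria and coenzyme Q to the plasma membrane. Control libraries 1 to 5 held 2284, 2525, 2639, 2481 and 2523 normalized reads, and heterozygous libraries held 2029.7, 2167, 2635, 2749.5 and 2283. Heterozygous libraries 1, 2 and 5 were below every control, library 5 by less than 1 normalized read, and library 4 was above every control. Stard7 gave a log2 fold change of -0.08 (SE 0.109, 95% interval -0.31 to 0.16, adjusted p = 0.648).

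Dhodh (ENSMUSG00000031730.18; chromosome 8, 109591343 to 109608673, minus strand) encodes dihydroorotate dehydrogenase, which makes a pyrimidine precursor at the inner mitochondrial membrane and passes the electrons to coenzyme Q. Control libraries 1 to 5 held 432, 480.5, 449, 498 and 444 normalized reads, and heterozygous libraries held 571, 594, 428, 341 and 383. No heterozygous library fell inside the control range: libraries 1 and 2 were above every control and libraries 3, 4 and 5 below every control, a pattern shared by 0.712% of the genes tested. Among the genes of the route lists described below, Hspa9, Phb2, Uck2, Mboat1 and Cisd3 had it too, so it was not particular to Dhodh. The means were 461 ± 27.5 and 463 ± 113 (SD, n = 5 each), with a log2 fold change of -0.02 (SE 0.156, 95% interval -0.36 to 0.31, adjusted p = 0.933). It was 0.04 with TMM scaling, 0.01 with DESeq2 on recovered reads and 0.005 to 0.078 without control library 4 or heterozygous library 4 or 5, so it changed sign between these settings. The SD of Dhodh was larger in the heterozygous group while the mean was nearly the same.

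**Figure D2:**
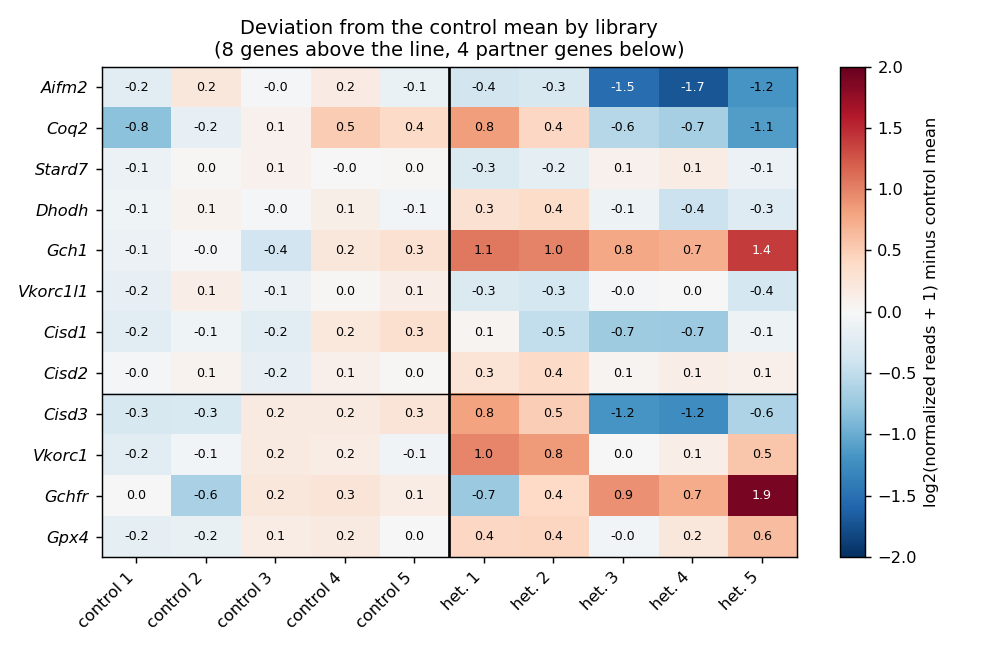
Deviation of each library (columns) from the control mean for the 8 genes (above the line) and 4 partner genes (below it), in log2(normalized reads + 1), with red above and blue below the control mean. Gch1 is above and Aifm2 below the control mean in all heterozygous libraries, while Coq2, Dhodh and Cisd3 are above it in heterozygous libraries 1 and 2 and below it in 3, 4 and 5.

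Gch1 (ENSMUSG00000037580.10; chromosome 14, 47153895 to 47189413, minus strand; 6251 exonic bases) encodes GTP cyclohydrolase, the rate-limiting enzyme of tetrahydrobiopterin synthesis. The 300 bases around its start are shown because Gch1 was the member called higher. They come from RefSeq (GRCm38.p6, chr14:47189364-47189663, minus strand), run from 250 bases before the start to 50 after it, and have a start identical to that of the GENCODE gene.
Gch1: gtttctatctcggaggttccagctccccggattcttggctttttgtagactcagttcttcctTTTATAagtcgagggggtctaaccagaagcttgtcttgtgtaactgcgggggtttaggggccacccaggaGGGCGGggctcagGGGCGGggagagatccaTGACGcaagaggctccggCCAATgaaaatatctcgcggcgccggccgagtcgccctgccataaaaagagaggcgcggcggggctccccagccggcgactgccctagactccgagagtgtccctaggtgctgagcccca
Capitals mark matches to 4 of the 6 motifs searched on both strands. They are GC boxes (GGGCGG) beginning at -118 and -105 from the start, a core of the cyclic AMP response element (TGACG) at -88, a CCAAT box (CCAAT) at -70 and, on the other strand, a TATA-like run (TATAAA) at -188. None of these matches overlaps another. The same letters occur in 35.6%, 20.8%, 37.4% and 13.6% of 32807 promoter windows of this length, in that order. The antioxidant response core (TGACNNNGC, 12.4% of windows) and the gamma-activated sequence (TTCNNNGAA, 8.29%) had no match in this window. The window holds 20 CG dinucleotides, a number not exceeded in 75.2% of all windows.

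Control libraries 1 to 5 held 76.4, 81.3, 63.7, 97.1 and 103 normalized reads of Gch1, and heterozygous libraries 1 to 5 held 175, 166, 144, 138 and 221. All 5 heterozygous libraries were above every control, as for 4.64% of all genes tested, and libraries 1 and 2 lay within the range of libraries 3, 4 and 5. The heterozygous mean was 199.8% of the control mean. The log2 fold change was 0.99 (SE 0.186, 95% interval 0.59 to 1.39, adjusted p = 0.00676 by limma). It was 1.02 without heterozygous libraries 3, 4 and 5 and 0.97 without libraries 1 and 2, and passed the test both times. The gene with the closest profile was Gstk1, a mitochondrial and peroxisomal glutathione transferase, at a root mean square difference of 0.158, against a spread of 0.552 of Gch1 around its own mean. Il2rg, the common gamma chain of cytokine receptors, followed at 0.178, and Apobec1, an RNA-editing cytidine deaminase, at 0.179. Gstk1 ranged from 118 to 163 normalized reads in controls and from 226 to 295 in the heterozygous group.

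Gchfr encodes the regulatory protein that inhibits Gch1 when tetrahydrobiopterin is plentiful. Control libraries held 29.8, 18.5, 34.7, 35.5 and 32.7 normalized reads of Gchfr and heterozygous libraries 17.2, 39.2, 56.3, 49.9 and 112. Library 1 of the heterozygous group was below every control, and its other 4 libraries were above. Gchfr was not called (log2 fold change 0.64, SE 0.400, adjusted p = 0.286), and the ratio of Gch1 to Gchfr within a library did not pass a test, as given with the other ratios.

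Vkorc1l1 (ENSMUSG00000066735.8; chromosome 5, 129941970 to 129986692, plus strand) encodes a vitamin K epoxide reductase, a paralog of Vkorc1. Control libraries 1 to 5 held 262, 323, 273, 299.5 and 322 normalized reads, and heterozygous libraries held 242, 231, 289.7, 298 and 231. Libraries 1, 2 and 5 of the heterozygous group were below every control, and libraries 3 and 4 lay inside the control range. The log2 fold change was -0.20 (SE 0.129, 95% interval -0.48 to 0.08, adjusted p = 0.303). Vkorc1, the reductase blocked by warfarin, ranged from 791 to 1042 in controls, and heterozygous libraries 1 to 5 held 1805, 1651, 919, 1011 and 1342 normalized reads (log2 fold change 0.50, SE 0.179, adjusted p = 0.0769). Vkorc1 was thus above every control in heterozygous libraries 1, 2 and 5, where Vkorc1l1 was below every control.

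Cisd1 (ENSMUSG00000037710.8; chromosome 10, 71330480 to 71344954, minus strand) encodes mitoNEET of the outer mitochondrial membrane, and Cisd2 (ENSMUSG00000028165.9; chromosome 3, 135406412 to 135423925, minus strand) a relative in the endoplasmic reticulum membrane. Both hold an iron-sulfur cluster in a CDGSH-type domain. The 60 coding bases around that motif are shown, with the codons of the motif in capitals, because the transcripts are related and the genes are compared below. The capitals encode the residues CDGSH in Cisd2 and CDGAH in Cisd1.
Cisd1: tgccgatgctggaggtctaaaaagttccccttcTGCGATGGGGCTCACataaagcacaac
Cisd2: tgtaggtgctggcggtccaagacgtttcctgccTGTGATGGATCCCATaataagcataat
Even in this conserved stretch 40 of the 60 bases were identical, and 10 of the 15 in capitals, while 16 of the 20 encoded residues were identical.

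Control libraries 1 to 5 held 137, 152, 139, 186 and 202 normalized reads of Cisd1, and heterozygous libraries held 167, 114, 98.4, 97.2 and 149. Heterozygous libraries 2, 3 and 4 were below every control and libraries 1 and 5 inside the control range. For Cisd1 the log2 fold change was -0.40 (SE 0.193, 95% interval -0.81 to 0.02, adjusted p = 0.175). For Cisd2 the controls held 1549.6, 1663, 1402, 1685 and 1599 normalized reads and the heterozygous libraries 1907, 2047, 1637, 1726 and 1685. Libraries 1, 2 and 4 of the heterozygous group were above every control, by little in library 4. The log2 fold change of Cisd2 was 0.19 (SE 0.103, 95% interval -0.03 to 0.41, adjusted p = 0.226). Cisd3, the mitochondrial matrix relative, held 77.4, 78.5, 111, 109.6 and 117 in controls, and heterozygous libraries 169.9, 137, 42.1, 40.4 and 63.0 (log2 fold change -0.35, SE 0.371, adjusted p = 0.540). Cisd3 thus had libraries 1 and 2 above and 3, 4 and 5 below every control, as had Dhodh and the route genes named with it.

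**Figure D3:**
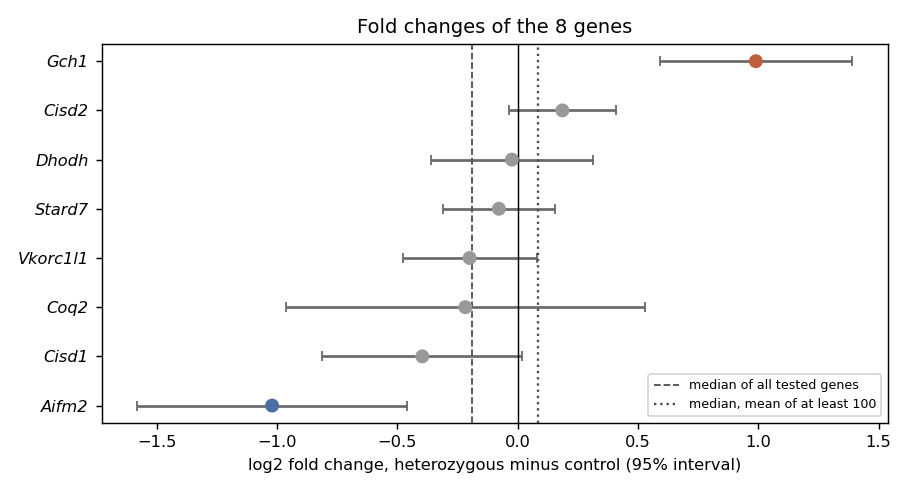
Log2 fold changes of the 8 genes, heterozygous minus control, as points with 95% intervals from limma; the dashed line is the median of all genes tested (-0.19) and the dotted line that of genes with a mean of at least 100 (0.08). The intervals of Gch1 (0.59 to 1.39) and Aifm2 (-1.58 to -0.46) exclude 0, and those of the other 6 genes include it.

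Per kilobase of exons, the control level was highest for Stard7, at 447 normalized reads per kb ± 23.3 (SD, n = 5), followed by Coq2 at 238 ± 76.5, Cisd2 at 206 ± 14.7 and Cisd1 at 150 ± 27.0. Dhodh followed at 72.8 ± 4.35, then Aifm2 at 58.2 ± 7.90, Vkorc1l1 at 56.2 ± 5.34 and Gch1 at 13.5 ± 2.56. The control ranges of Coq2, Cisd2 and Cisd1 overlapped one another, as did those of Aifm2 and Vkorc1l1. Compared within libraries, Coq2 and Cisd2 were each above Cisd1 in every control library. The order of Coq2 and Cisd2, and that of Aifm2 and Vkorc1l1, differed between control libraries. Gch1 had a range of 10.2 to 16.6 per kb, below all the others. In heterozygous libraries Aifm2 stood at 30.7 ± 13.8 per kb and Gch1 at 27.0 ± 5.32, and their ranges, 17.5 to 46.0 and 22.0 to 35.4, overlapped.

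The coefficient of variation between libraries was larger in the heterozygous group for 8 of 8 members, as for 78.6% of the 9056 tested genes with a mean of at least 100. It went from 13.6% to 44.7% for Aifm2, from 5.98% to 24.4% for Dhodh and from 32.2% to 57.7% for Coq2, whose libraries were the most scattered. For Gch1 it was nearly equal, 19.0% and 19.7%. For Cisd2 it was 7.14% and 9.53%, and for Vkorc1l1 9.49% and 12.7%.

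Ratios of 2 genes within a library do not depend on how libraries are scaled, except through the 1 added to each value here. When 0.1 was added instead, the difference between groups was 0.347 for Gch1 to Gchfr and -1.354 for Aifm2 to Gpx4. The ratio of Aifm2 to Gpx4 sets the RNA of the 2 genes side by side and does not measure the activity of either route. On the log2 scale the ratio was -5.31 ± 0.222 in controls against -6.66 ± 0.558 in heterozygous libraries (SD, n = 5 each). All 5 heterozygous libraries were below every control, and the difference of -1.35 had a two-sided exact permutation p of 0.00794, the smallest that 252 assignments allow (0.0317 after Benjamini-Hochberg adjustment over the 4 ratios). Gpx4 itself averaged 9544 and 12049 normalized reads and was not called (adjusted p = 0.127 by limma). The difference in this ratio holds the log2 fold changes of both genes, -1.02 for Aifm2 and 0.33 for Gpx4. It is thus no independent support for the Aifm2 call. The log2 ratio of Cisd1 to Cisd2 was -3.28 ± 0.209 in controls and -3.87 ± 0.340 in heterozygous libraries. Its difference of -0.58 had an exact permutation p of 0.0159 (adjusted 0.0317), with 4 of 5 heterozygous libraries below every control and library 5 just inside the control range. With 1 library left out, where the exact permutation p cannot go below 0.0159, the adjusted p of both ratios was 0.0317 to 0.0635, with the same sign each time. Adjustment over the 4 ratios turns 0.0159 into 0.0635 unless another ratio reaches 0.0159 too.

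The log2 ratio of Vkorc1l1 to Vkorc1 was -1.63 ± 0.213 in controls and -2.34 ± 0.587 in heterozygous libraries, with 3 of 5 below every control. That difference of -0.70 missed the threshold, with an exact permutation p of 0.0556 (adjusted 0.0741). The log2 ratio of Gch1 to Gchfr was 1.47 ± 0.445 and 1.82 ± 0.902, a difference of 0.35 with an exact permutation p of 0.532. It ranged from 0.97 to 3.27 among the heterozygous libraries and from 0.86 to 2.08 among controls, so the groups overlapped.

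**Figure D4:**
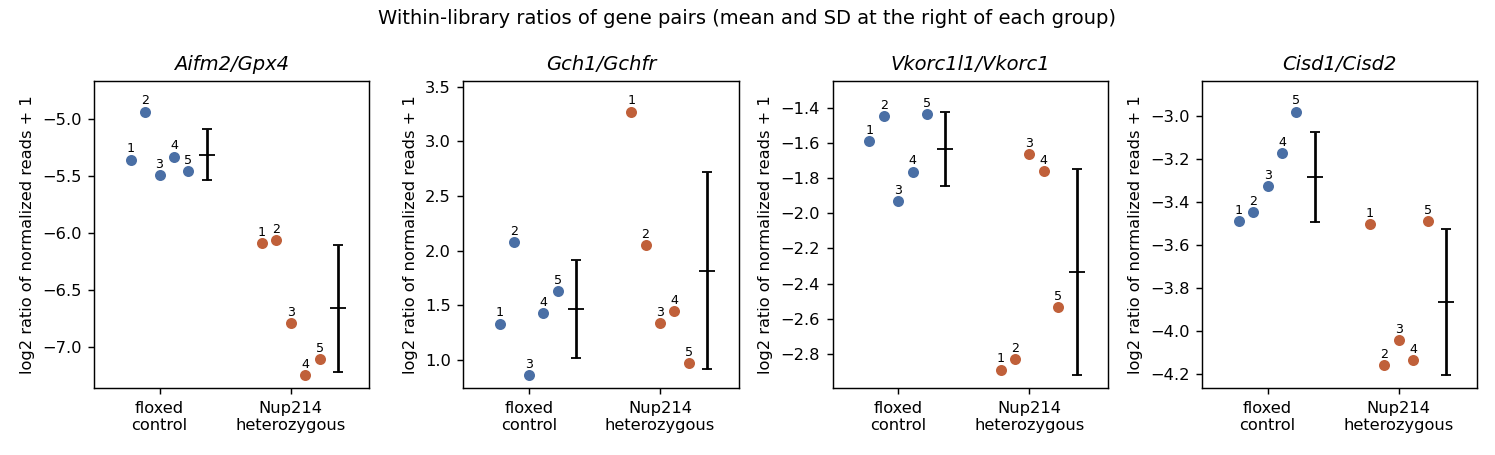
Log2 ratios of normalized reads + 1 within each library (vertical axes, which do not start at 0) for 4 gene pairs; points are libraries with their replicate number, and bars are the mean and SD. All 5 heterozygous libraries lie below every control for Aifm2/Gpx4 and 4 of 5 do for Cisd1/Cisd2, while Gch1/Gchfr overlaps.

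The routes around these genes were described with 9 lists of 86 genes in all, 79 of them not members. All 86 were tested, and 7 were called higher and 1 lower, against 5% and 8.01% of all genes. Aifm2, the member called lower, was in none of the lists and is not in these counts. Among the 9056 genes with a mean of at least 100, 928 were called higher and 321 lower, so calls higher were the more common there as well. The median log2 fold change of the 86 was 0.03, between -0.19 for all genes tested and 0.08 for those with a mean of at least 100. Of 15 coenzyme Q synthesis genes 1 was called higher, and the median was -0.03. That gene was Coq10b, a coenzyme Q binding protein of mitochondria, which was higher at 274 normalized reads ± 51.1 against 169 ± 42.2 in controls (SD, n = 5 each; log2 fold change 0.71, adjusted p = 0.0285). Leaving out control library 1, 3 or 4 or heterozygous library 3 or 5 ended this call, with an adjusted p of up to 0.0730. Of 10 mevalonate genes, which supply the isoprenoid tail that Coq2 attaches, 1 was called lower. It was Pmvk, phosphomevalonate kinase. Control libraries held 267, 291, 328, 332 and 301 normalized reads of it, against 177, 186, 223, 187 and 214 in the heterozygous group. Every heterozygous library of Pmvk was below every control (log2 fold change -0.62, adjusted p = 0.00955).

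Of 9 tetrahydrobiopterin genes Gch1 alone was called, and the median log2 fold change of the list was 0.20. The log2 fold change was 0.25 for Qdpr, which recycles dihydrobiopterin made during catalysis (adjusted p = 0.164), and 0.09 for Spr, which completes the synthesis (adjusted p = 0.721). For Pts, the enzyme after Gch1, it was -0.29 (adjusted p = 0.192). The log2 fold change of largest size in the list was that of Pcbd1, which recycles the cofactor with Qdpr, at -1.47 (SE 0.678, adjusted p = 0.154). Pcbd1 was a low gene, with 0.992 to 17.7 normalized reads in controls and 0 to 6.54 in the heterozygous group. Of 8 vitamin K and quinone reduction genes 1 was called higher, Nqo1, a quinone reductase of the cytosol. It lay between 1.85 and 8.35 normalized reads in controls and between 15.5 and 50.7 in the heterozygous group, a log2 fold change of 2.20 (adjusted p = 0.00726), and stayed a low gene. Nqo1 was also in the list of 9 other suppressors, where Gclm, the modifier subunit of the enzyme that starts glutathione synthesis, was the only other gene called (log2 fold change 1.39, adjusted p = 0.00285). Gpx4 uses glutathione, so Gclm is not separate from the Gpx4 route. Gclc, the other subunit of that enzyme, was not called (log2 fold change -0.14, adjusted p = 0.746 by limma).

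Of 9 pyrimidine genes 2 were called higher, while Dhodh was not. Umps, which acts after Dhodh in the pathway, was at 2839 normalized reads ± 102 in controls and rose to 3768 ± 525 (SD, n = 5 each; log2 fold change 0.40, adjusted p = 0.0365). Ctps2, a CTP synthase, rose from 1570.5 ± 44.6 to 2033 ± 175 (log2 fold change 0.37, adjusted p = 0.0274). With quantile normalization their log2 fold changes were 0.18 and 0.21, and both calls were lost (adjusted p = 0.336 and 0.208). Both were also lost with upper quartile scaling (0.0891 and 0.0730) and without a filter (0.0708 and 0.0689), and that of Umps without heterozygous libraries 1 and 2 (0.0634). Umps kept its call with 1 library left out only for heterozygous libraries 1 and 3 (adjusted p up to 0.0814), and Ctps2 only for control library 4 and heterozygous libraries 1, 2 and 3 (up to 0.0650). None of 7 genes of Stard7 processing and FSP1 lipidation was called by limma or by edgeR, and 1 had an unadjusted p under 0.05. That gene was Nmt2, a myristoyltransferase of the kind that lipidates FSP1, with a log2 fold change of 0.40 (limma adjusted p = 0.0621), which DESeq2 called. For Parl, the protease that cleaves Stard7, it was 0.06 (adjusted p = 0.775). None of the 3 CDGSH genes was called by limma, edgeR or DESeq2, and 0 had an unadjusted p under 0.05. Of 17 iron-sulfur assembly genes 1 was called higher, Isca1, which helps to build mitochondrial clusters (log2 fold change 0.53, adjusted p = 0.0104).

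**Figure D5:**
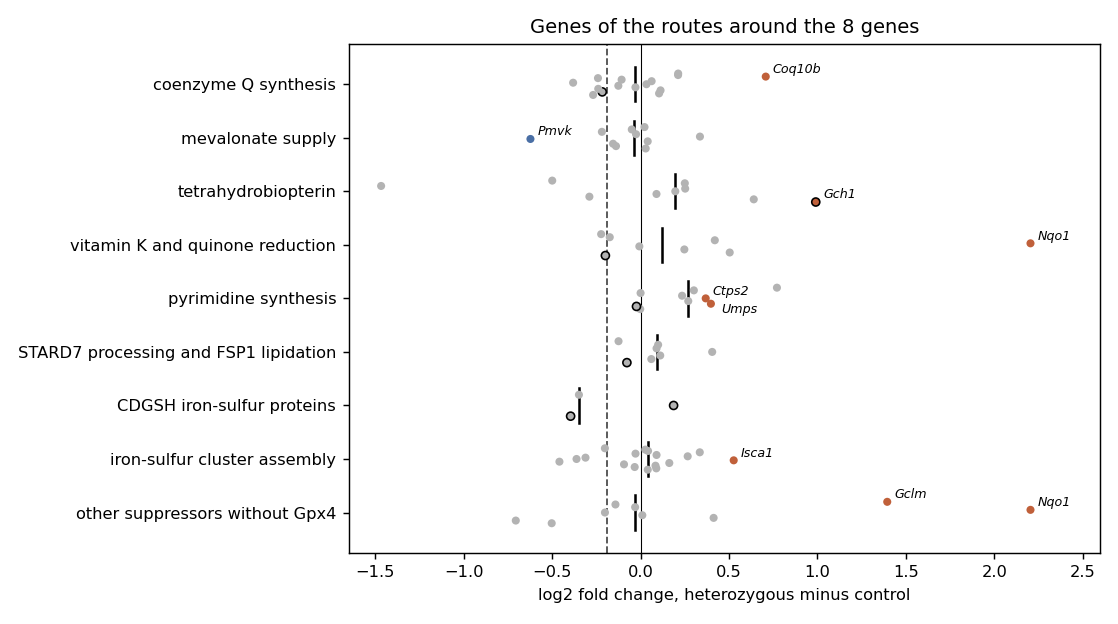
Log2 fold changes, heterozygous minus control (horizontal axis), of the genes of the 9 route lists; each point is a gene, outlined where it is a member, orange where called higher and blue where called lower, and black bars are list medians. The dashed line is the median of all genes tested (-0.19), and that of genes with a mean of at least 100 was 0.08 (not drawn). List medians lie between -0.35 and 0.27. Aifm2 is in none of the lists and is not shown.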

How the data were processed

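Per the labels' protocols, total RNA from a miRNeasy extraction was amplified by the Geo-seq method, which suits few cells, before TruePrep library construction. The submitters' processing notes name DESeq2, HTSeq, Cufflinks 2.1.1, Bowtie 0.12.9 and the mm10 build, without role or order, and give no annotation. Each deposited signal equals a read count scaled by a single factor for its library and is called normalized reads. In each library every value was a whole multiple of 1 step within 0.01, except 1 value in each of 2 libraries, which gave the recovered reads. No molecular identifiers are described, so depth covers counting error only. Whether the libraries of a group are separate animals is not stated, and p-values therefore reflect only the spread between libraries, which may be technical.

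Libraries were grouped by labelled genotype, 5 and 5. Genes with at least 1 normalized read in at least 5 libraries were tested with limma 3.58.1 (R 4.3.3, intensity trend, genotype only) on log2(normalized reads + 1). The fit was also run on simulated counts with a single mean for each gene and group, which does not test calls where heterozygous libraries differ as here. Ratios used a two-sided exact permutation test. The members, route lists and markers were chosen with earlier results of these data known. Named genes were the members, Nup214, called route genes, Gpx4, Gchfr, Vkorc1, Cisd3 and, for each called member, the 3 genes with the closest profile. Spr, Qdpr, Pts, Pcbd1, Gclc, Nmt2, Parl, Hspa9, Phb2, Uck2, Mboat1, the sort markers and the overlapping Macroh2a2 were added after their values were seen. Gene models came from GENCODE and promoters from RefSeq (GRCm38.p6), which held 7 of the 8 members. Alternatives were 3 other scalings, 3 filters, a pseudocount of 0.1, quality weights, a replicate block, edgeR 4.0.16 and DESeq2 1.42.0 on recovered reads, and leaving out libraries. Permutations and plots came from scipy 1.17.1 and matplotlib 3.10.9 in Python 3.11.15.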

Additional observations from a re-analysis of the deposited data

Results flagged for a closer look

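Of 46 groups of 5 libraries examined for a single distant library, 2 stood out, and chance gives about 1 in 20. Ctps2 held 1732 normalized reads in heterozygous library 3, the lowest of its group, and the other 4 heterozygous libraries held 2045 to 2168. Isca1 held 1110.1 normalized reads in heterozygous library 5, the highest of its group, and the other 4 held 837 to 914. Neither gene is among the 8 members, and each was above every control in 5 of 5 heterozygous libraries.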

How the results depend on the processing

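Gch1 was called higher in all 23 alternatives, with log2 fold changes of 0.89 to 1.07 and adjusted p of 2.5e-05 to 0.0215, and the count of members called higher was 1 throughout. The count called lower was 2 (Aifm2 and Coq2) without heterozygous libraries 1 and 2, 0 without libraries 3, 4 and 5, and 0 to 1 with 1 library left out. Leaving out libraries 1 and 2, or 3, 4 and 5, follows a split drawn from these data and is descriptive only. Aifm2 kept its direction in all 23 alternatives and its call in 18. Over all genes tested, the median log2 fold change was -0.19 in the main test and -0.02 with quantile normalization. Relative to that median Aifm2 was at -0.83 and -1.01, in that order, and Gch1 at 1.18 and 1.03.

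Directions that reversed concerned genes that were not called. Dhodh was 0.044 with TMM scaling, 0.010 with DESeq2, 0.34 without heterozygous libraries 3, 4 and 5 and -0.12 to 0.078 with 1 library left out. Coq2 was 0.63 without heterozygous libraries 3, 4 and 5 and -0.48 to 0.0075 with 1 left out, and Stard7 was 0.035 without libraries 1 and 2. Among ratios with 1 library left out, Gch1/Gchfr differed by -0.014 to 0.56, Aifm2/Gpx4 by -1.50 to -1.20 and Cisd1/Cisd2 by -0.68 to -0.51. The calls of Aifm2/Gpx4 and Cisd1/Cisd2 were lost in 8 of 10 such tests (adjusted p = 0.0635), where an exact permutation p cannot go below 0.0159. Adjustment over the 4 ratios turns that p into 0.0635 unless another ratio reaches it too. For Aifm2/Gpx4 every heterozygous library stayed below every control in these tests, so its lost calls do not show a weaker difference.

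Route genes called higher numbered 11 with TMM scaling, 11 with DESeq2, 12 without heterozygous libraries 3, 4 and 5 and 4 to 9 with 1 library left out. Those called lower numbered 9 without heterozygous libraries 1 and 2 and 3 without libraries 3, 4 and 5. Coq10b (adjusted p = 0.115) and Nqo1 (0.0718) lost their calls without libraries 3, 4 and 5, and Umps and Ctps2 lost theirs with quantile normalization, upper quartile scaling, no filter and the replicate block (0.0631 and 0.0703 with the block). Pmvk, Isca1 and Gclm kept theirs in all 23.

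Over the whole table, 1122 genes were called higher and 1798 lower, so 38.4% of calls were higher. That share was 60.1% with quantile normalization (517 lower), 29.4% with upper quartile scaling (852 higher, 2043 lower), 48.4% with TMM scaling, 51.3% with a filter of 5 (1063 lower), 75.5% with a mean of at least 100 (311 lower), 48.7% with a pseudocount of 0.1 (1028 lower) and 55.6% with edgeR (808 lower). Without a filter 1119 were lower, and without heterozygous libraries 1 and 2, 2095 were higher and 2707 lower. With 1 library left out, 559 to 1313 were higher and 599 to 2250 lower, the fewest without control library 1. The replicate numbers gave no sign of pairing: same-numbered libraries correlated at -0.0905 to 0.0817 and none correlated best with its own number. This cannot exclude pairing, given only 5 pairs and the differences among the heterozygous libraries. With the replicate block 703 genes were higher and 945 lower, and both Gch1 (adjusted p = 0.0177) and Aifm2 (0.0425) were called, while Umps and Ctps2 were not. The cause of these changes was not tested.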
